A study of Mus musculus with 8 samples.

Results

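The genes of the heat shock and unfolded protein response were followed in donor-derived myeloid cells of the mouse brain after an experimental stroke. The set holds 34 genes, taken by name: every gene probe on the array was used whose gene name, or whose RefSeq accession, belonged to a listed gene. This gave 44 of the 60273 gene probes, 34 of the 47242 names on the array, and 33 of the 42432 genes that could be tested. The small heat shock protein gene Hspb1 was not tested, because its probe was well above background on 1 of 4 KO arrays and 1 of 4 WT arrays.

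Chaperones are proteins that bind unfolded chains and help them fold, and cells make more of them when proteins are damaged. In the cytosol the transcription factor HSF1 drives this heat shock response. In the endoplasmic reticulum (ER), where secreted and membrane proteins fold, the sensors IRE1 (Ern1), PERK (Eif2ak3) and ATF6 detect unfolded chains and start the unfolded protein response, which raises folding capacity, slows translation and, when prolonged, can lead to cell death. Brain ischaemia is a known trigger of both responses, and macrophages that secrete and engulf much material rely on their ER.

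Cells came from bone marrow chimeras. In the KO group, marrow from Psgl1-/- donors that carried the red fluorescent protein DsRed had been given to wild-type hosts, and in the WT group the marrow came from Psgl1+/+ donors that carried DsRed. Psgl1 (symbol Selplg) encodes PSGL-1, a leukocyte glycoprotein that binds selectins. All hosts underwent 30 min of occlusion of the middle cerebral artery followed by reperfusion, and ischaemic brain tissue was taken at 7 days. Cells were enriched for CD11b on magnetic beads and then sorted as propidium iodide-negative, DsRed+, CD11b+, Ly6G-, CD3- and CD45hi. Each group has 4 arrays, numbered 5 to 8 for KO and 1 to 4 for WT. The hosts keep their own PSGL-1 and their own microglia, and the labels give neither the age of the animals nor how many stood behind each sample. The p-values therefore reflect the scatter among these samples alone, some of which may be technical.

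Each sample was read on 1 single-colour array on which brightness stands for RNA abundance. Values are log2 signals after each array was scaled to its 75th percentile, and a difference is KO minus WT on that log2 scale. Before scaling, this percentile was 857.25, 866.02, 832.21 and 956.63 signal units on KO arrays 5 to 8. On WT arrays 1 to 4 it was 685.57, 746.87, 609.45 and 518.29, without overlap. The scaling thus lowered KO signals relative to WT signals, and differences under other scalings are given below. Between 76.2% and 88.2% of gene spots were well above background on KO arrays, against 76.1% to 86.8% on WT arrays. All 14 monocyte and macrophage markers, which fit the sort, were well above background on all 8 arrays. Markers of cells that the gate should remove were also seen: in units of 1000 signal units, neuron markers summed to 99.8 to 127 on KO arrays and 144 to 225 on WT arrays, and B cell markers to 22 to 29.9 on KO arrays and 33.6 to 40.1 on WT arrays, both without overlap. Snap25 and Syt1 made up 89.1% to 93.4% of the neuron sum, and without them the other 6 summed to 8.44 to 13.3 on KO arrays and 12.4 to 17.9 on WT arrays, with overlap. Neutrophil markers summed to 5.99 to 25.4 on KO arrays, against 1.76 to 8.44 on WT arrays. Microglia markers summed to 47.5 to 69.3 on KO arrays and 59.3 to 104 on WT arrays. T and NK cell markers summed to 4.64 to 7.4 on KO arrays and 7.23 to 12.4 on WT arrays. These sums overlapped, as did those of astrocyte, oligodendrocyte, endothelial and mural, and erythroid and platelet markers. Of all tested genes, 11.0% lay wholly lower in KO. The Selplg probe read 13.25, 13.45, 13.15 and 12.87 on KO arrays 5 to 8, against 13.80, 12.67, 13.05 and 15.75 on WT arrays 1 to 4. The labels do not say which part of the gene was deleted, so this probe does not check them. In bulk RNA of sorted cells, fewer cells of a type and less RNA per cell cannot be told apart.

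No gene of the set passed the test. With limma and Benjamini-Hochberg adjustment over all tested genes, 0 of 33 had an adjusted p under 0.05, against 0.00236% of all genes higher in KO and 0% lower. At an unadjusted p under 0.05 there were 0 genes higher in KO and 1 lower (Ddit3), where 1.61% and 9.37% of all tested genes lay in these directions. The 4 KO arrays lay wholly above the 4 WT arrays for 0 genes of the set and wholly below them for 2 (Ddit3 and Herpud1), against 0.641% and 11.0% of all tested genes. Without KO array 7, KO array 8, WT array 1 or WT array 4 the count lower was 0. The count higher was 1 without KO array 5, 6 or 7 and 3 without WT array 3 or 4. The shares of all tested genes with these arrays left out are not given, so these counts do not describe the set alone. The lowest adjusted p in the set was 0.454. Of the 44 probes of the set 41 were tested, and 0 of them had an adjusted p under 0.05, against 0.0175% of all tested probes.

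The direction of the differences was mixed. Of 33 tested genes, 19 had a positive difference (57.6%) and 14 a negative one, with a median of 0.16. Over all tested genes 30.8% were positive and the median was -0.33. Among the 6206 tested genes whose signal lay within 1 log2 unit of the set's median level, 33.3% were positive and the median was -0.27. KO array 7 had the highest median of the set, and without it 13 genes were positive with a median of -0.26, against -0.30 for all genes. Scaling also shifted the whole table: the median of all tested genes was -0.17 after quantile normalization or scaling to the array median, -0.01 after cyclic loess, -0.11 after normexp background correction followed by quantile normalization, and -0.16 in the value table that the authors deposited. Under these and the main scaling, 28 of 33 genes of the set kept their sign, 19 of them positive and 9 negative, while Hsph1, Hspa5, Pdia3, Ddit3 and Ppp1r15a changed sign. The scalings were not all separate checks. The deposited table gave nearly the same differences as quantile normalization, which also followed normexp.

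**Figure D1:**
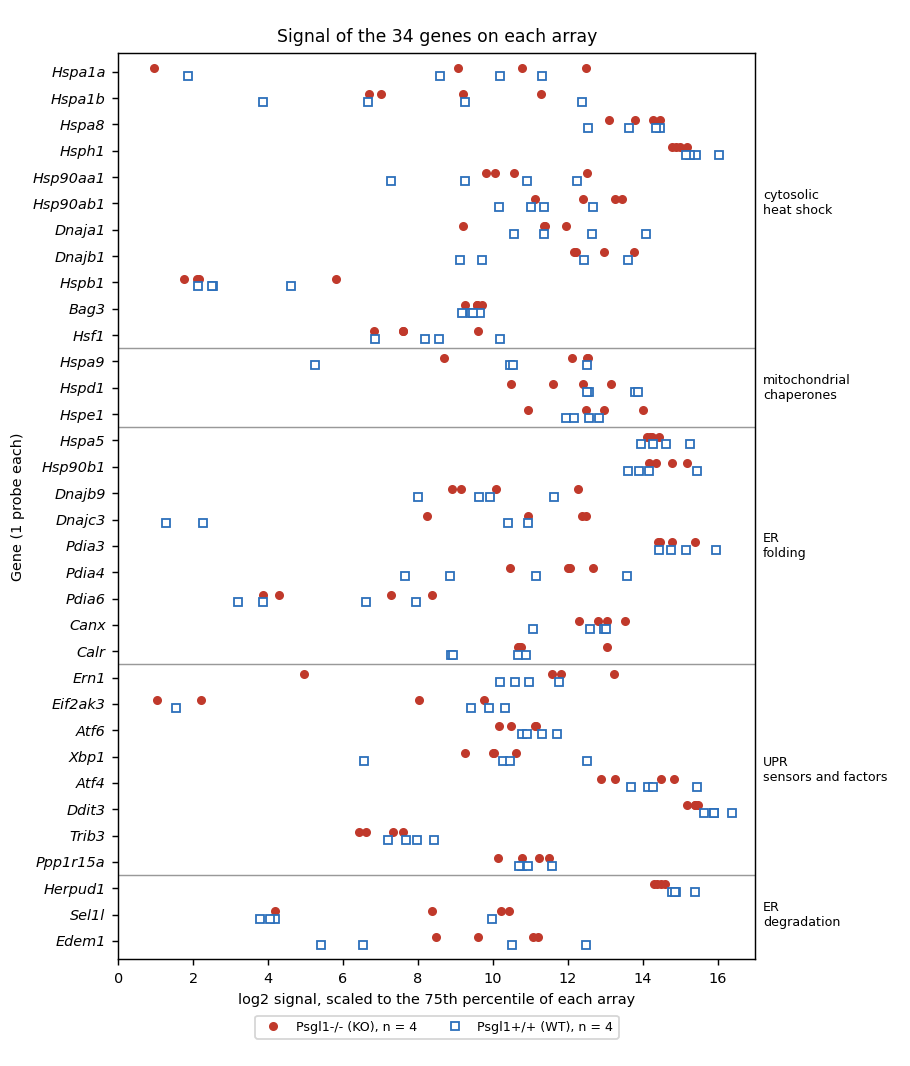
Log2 signal (scaled to each array's 75th percentile) of the 34 genes, grouped by role, with 1 red circle per KO array and 1 open blue square per WT array. The groups overlap for all genes shown except Ddit3 and Herpud1, where all 4 KO arrays lie below all 4 WT arrays.

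In the cytosolic heat shock group, 10 of 11 genes were tested, and 7 had a positive and 3 a negative difference, with a median of 0.25. Without KO array 7 there were 4 positive genes and a median of -0.22, and without WT array 1 a median of -0.01. None of the 10 had an adjusted p under 0.05 or groups without overlap. Hsf1, the gene of the regulator, read 7.59, 7.6, 9.61 and 6.83 on KO arrays 5 to 8, against 8.56, 6.86, 8.18 and 10.18 on WT arrays 1 to 4. The ranges crossed, and the difference for Hsf1 was -0.54 ± 0.83 (SE; limma, adjusted p = 0.791). Without WT array 4 the difference was 0.04, without KO array 8 it was -0.18, and without KO array 7 it was -1.10.

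The 2 genes of HSP90, the chaperone of kinases and steroid receptors, had positive differences. Hsp90ab1, the constitutive form, read 12.39, 11.11, 13.25 and 13.45 on KO arrays, against 10.15, 11.01, 12.68 and 11.36 on WT arrays. KO arrays 7 and 8 were above every WT array, and the lowest KO array stood just above WT array 2. The difference for Hsp90ab1 was 1.25 ± 0.69 (SE; limma, adjusted p = 0.482), or 2.38-fold. Hsp90aa1, the stress-inducible form, read 9.80, 10.55, 12.50 and 10.06 on KO arrays, against 7.27, 9.26, 12.23 and 10.91 on WT arrays. Its groups overlapped, the difference was 0.81 ± 1.11 (SE; limma, adjusted p = 0.764), and it was -0.07 without WT array 1, 0.22 without KO array 7 and 1.58 without WT array 3.

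A second Hsp90aa1 probe, whose identifier is BG864327, was dimmer and moved the other way. It read 5.99, 5.97, 5.62 and 6.08 on KO arrays, against 6.47, 6.12, 6.23 and 7.03 on WT arrays. Here all KO arrays lay below all WT arrays, with a difference of -0.54 ± 0.29 (SE; limma over probes, adjusted p = 0.488). The 2 probes therefore gave no common direction for the gene.

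The HSP40 proteins hand unfolded chains to HSP70. Dnajb1 read 12.96, 12.15, 12.21 and 13.76 on KO arrays, against 9.12, 12.43, 13.61 and 9.71 on WT arrays. The KO values were close to each other, while WT arrays 1 and 4 were low and WT arrays 2 and 3 lay inside the KO range. The difference for Dnajb1 was 1.55 ± 1.03 (SE; limma, adjusted p = 0.531), with 0.85 without WT array 1 and 2.35 without WT array 3. Dnaja1 read 11.95, 9.20, 11.38 and 11.36 on KO arrays, against 10.57, 12.63, 11.35 and 14.09 on WT arrays. The groups overlapped, with a difference of -1.19 ± 0.89 (SE; limma, adjusted p = 0.571), and -0.60 without KO array 6 or -0.54 without WT array 4. Its other probe (NM_001164672.1) gave 9.19, 9.67, 10.25 and 8.87 on KO arrays, against 9.84, 9.45, 8.66 and 9.34 on WT arrays, a difference of 0.18 ± 0.40 (SE).

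Among the HSP70 family, Hsph1, the large HSP110 relative that recharges HSP70, read 14.89, 15.19, 14.99 and 14.77 on KO arrays, against 15.43, 15.25, 15.16 and 16.04 on WT arrays. KO array 6 and WT array 3 overlapped by a small margin. The difference for Hsph1 was -0.51 ± 0.28 (SE; limma, adjusted p = 0.476), and it was between 0.01 and 0.03 after quantile normalization (with or without normexp background correction before it) and in the deposited value table. Without WT array 4 it was -0.32. Hspa8, the constitutive HSP70, ran from 13.09 to 14.46 on KO arrays and from 12.53 to 14.45 on WT arrays, with a difference of 0.16. The inducible copies Hspa1a and Hspa1b are near-identical. Whether their probes share signal was not tested, so both are uncertain. Hspa1a read 9.07, 12.47, 10.78 and 0.95 on KO arrays, against 8.58, 11.30, 10.18 and 1.87 on WT arrays, so 1 array of each group was near the bottom of the scale while the rest were bright. Hspa1b read 7, 6.68, 11.29 and 9.21 on KO arrays, against 6.66, 9.26, 3.85 and 12.38 on WT arrays, with a difference of 0.51. It was bright on KO array 8 and WT array 4, where Hspa1a was near the bottom. Bag3, a co-chaperone that links HSP70 to autophagy, was the steadiest gene of the set: it ran from 9.26 to 9.70 on KO arrays and from 9.18 to 9.66 on WT arrays, with a difference of 0.10 ± 0.23 (SE; limma, adjusted p = 0.868).

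The mitochondrial chaperonin HSP60 (Hspd1) and its lid HSP10 (Hspe1) fold imported proteins together. Hspd1 read 13.14, 11.59, 12.41 and 10.47 on KO arrays, against 12.57, 12.52, 13.78 and 13.87 on WT arrays. Only KO array 5 reached the WT range, and the difference was -1.28 ± 0.64 (SE; limma, adjusted p = 0.465), or 2.43-fold lower. It was -0.81 without KO array 8, -2.17 within slide row 1 and -0.40 within slide row 2. Its partner Hspe1 ran from 10.93 to 13.99 on KO arrays and from 11.95 to 12.84 on WT arrays, with a difference of 0.20. Hspa9, the HSP70 of the mitochondrial matrix, read 8.69, 12.11, 12.50 and 12.53 on KO arrays, against 12.51, 5.26, 10.46 and 10.53 on WT arrays, with a difference of 1.76 ± 1.61 (SE; limma, adjusted p = 0.643). In each group 1 array was far below the others.

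Hspd1 and Hspe1 lie head to head, and their starts share a heat shock element, the letter pattern bound by HSF1. The motif, GAA, any 2 bases, TTC, any 2 bases and GAA, was searched on both strands in the 250 bases before each gene's start in RefSeq promoters (build GRCm38.p6), where 28 of the 34 genes had an entry. It was present in 2 of the 28 (7.1%) and in 0.51% of 27025 genes. The shared site is shown from both genes' sides because 1 site serves a pair whose probes differed in sign, with the motif letters, which overlap on the 2 strands, in capitals (chr1:55088047-55088088, plus strand for Hspe1 and minus strand for Hspd1).
Hspe1: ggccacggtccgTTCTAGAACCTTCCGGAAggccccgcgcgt
Hspd1: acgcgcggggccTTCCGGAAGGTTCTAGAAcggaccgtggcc

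**Figure D2:**
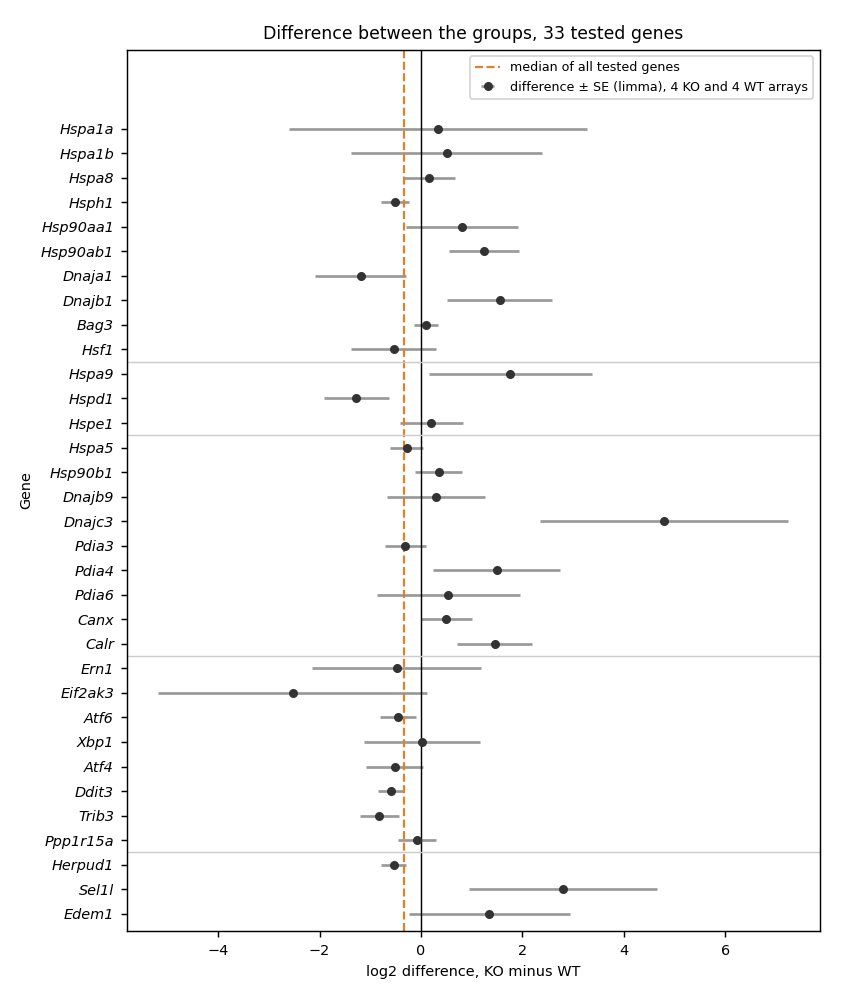
Difference in log2 signal (KO minus WT) of the 33 tested genes with its standard error from limma, 4 KO and 4 WT arrays, grouped by role. The dashed line marks the median of all tested genes at -0.33. All 9 ER folding genes lie to its right, but Hspa5 (-0.28 ± 0.33) and Pdia3 (-0.31 ± 0.40) lie next to it.

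In the ER folding group, 7 of 9 genes had a positive difference, with a median of 0.50. None had an adjusted p under 0.05 or groups without overlap. All 9 were positive after quantile normalization (with or without normexp before it), cyclic loess and in the deposited value table. Of all tested genes, 38.8% to 49.2% were positive under these scalings, against 30.8% under the main one. The positive genes were 7 of 9 with the array median, 5 within slide row 1 and 6 within slide row 2. With only genes well above background on all 8 arrays they were 5 of 7. Without KO array 7 the group had 5 positive genes and a median of 0.17, and without WT array 2 the median was 0.13.

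Hspa5 encodes BiP, the ER chaperone that holds the sensors inactive and the usual readout of ER stress. It read 14.19, 14.10, 14.44 and 14.24 on KO arrays, against 14.26, 13.95, 14.63 and 15.26 on WT arrays. The KO arrays lay inside the WT range, with a difference of -0.28 ± 0.33 (SE; limma, adjusted p = 0.719), and the difference was 0.10 after quantile normalization, 0.13 after cyclic loess and 0.14 after normexp with quantile normalization. Without WT array 4 it was -0.04, and without WT array 2 it was -0.48.

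Calreticulin (Calr) and calnexin (Canx) hold newly made glycoproteins until they are folded. Calr read 10.75, 10.69, 13.05 and 10.66 on KO arrays, against 10.68, 8.88, 10.87 and 8.93 on WT arrays. KO array 7 was far above all others, and the other KO arrays lay close to WT arrays 1 and 3. The difference for Calr was 1.45 ± 0.73 (SE; limma, adjusted p = 0.467), and 0.86 without KO array 7. Canx ran from 12.30 to 13.52 on KO arrays and from 11.08 to 13.01 on WT arrays, with a difference of 0.50.

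Dnajc3, known as P58IPK, is an ER co-chaperone of BiP that also restrains PERK. It read 8.23, 10.94, 12.38 and 12.47 on KO arrays, against 2.27, 1.27, 10.93 and 10.40 on WT arrays. Its probe was well above background on 4 KO arrays and on 2 WT arrays, and these 2 lay inside the KO range. WT arrays 1 and 2 were far below all other arrays and not well above background, so the size of the fitted difference, 4.79 ± 2.45 (SE; limma, adjusted p = 0.469), rests in part on values that only bound the WT signal. It was 3.14 without WT array 2 and 2.89 after normexp with quantile normalization.

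The remaining folding genes overlapped widely. Hsp90b1 (GRP94), the ER form of HSP90, ran from 14.16 to 15.17 on KO arrays and from 13.61 to 15.45 on WT arrays, with a difference of 0.35. Among the protein disulfide isomerases, which form and rearrange disulfide bonds, the difference was 1.49 for Pdia4, 0.54 for Pdia6 and -0.31 for Pdia3. The difference for the BiP co-chaperone Dnajb9 was 0.30.

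Many of these genes carry an ER stress response element (ERSE), the pattern through which ATF6 and the factor NF-Y act. The motif, CCAAT, any 9 bases and CCACG, was searched on both strands in the same promoter windows. It was present in 6 of 28 genes of the set (21.4%), namely Hspa5, Hsp90b1, Dnajc3, Pdia6, Canx and Calr, and in 0.13% of 27025 genes. All 6 belong to the ER folding group. Of these 6 genes, 5 had a positive difference, with a median of 0.52, where 30.8% of all tested genes were positive. The ER folding genes without a match were Pdia4 (difference 1.49), Dnajb9 (0.30) and Pdia3 (-0.31). The sites are printed because they are what the 6 genes share in sequence. Each is shown on the strand of the gene, with 12 bases on either side and the motif in capitals.
Hspa5, chr2:34772013-34772055, plus strand: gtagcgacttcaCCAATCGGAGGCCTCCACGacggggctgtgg
Hsp90b1, chr10:86705626-86705668, minus strand: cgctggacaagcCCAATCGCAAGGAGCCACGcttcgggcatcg
Hsp90b1, chr10:86705521-86705563, minus strand, motif reversed: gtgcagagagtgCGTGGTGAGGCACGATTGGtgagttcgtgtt
Dnajc3, chr14:118937815-118937857, plus strand: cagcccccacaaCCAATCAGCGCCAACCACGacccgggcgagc
Pdia6, chr12:17266479-17266521, plus strand: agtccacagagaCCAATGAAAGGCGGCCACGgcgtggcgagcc
Canx, chr11:50325788-50325830, minus strand: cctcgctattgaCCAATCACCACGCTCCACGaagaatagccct
Calr, chr8:84847063-84847105, minus strand, motif reversed: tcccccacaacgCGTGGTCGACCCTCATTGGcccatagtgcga

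The pattern TGACGTGG, an unfolded protein response element, and TGATGNAAT, a pattern bound by ATF4 with its partners, were found in 0 of 28 genes of the set, and in 0.60% and 0.91% of the 27025 genes. Such a match describes letters in a window and does not show that a factor was bound in these cells.

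In the group of sensors and transcription factors, 7 of 8 genes had a negative difference and 1 a positive one, with a median of -0.50. Over all tested genes 30.8% were positive and the median was -0.33. Of the 8 genes, 1 was lower at an unadjusted p under 0.05, beside 9.37% of all tested genes, and none had an adjusted p under 0.05. This split depended on the probes: with the mean over all probes of a gene, 4 were positive and 4 negative, and with RefSeq probes alone 3 were positive and 5 negative. With 1 array left out, 0 to 2 were positive (0 without WT array 2, 2 without KO array 8 or WT array 4), and without WT array 4 the median was -0.29.

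Of the 3 sensors, Eif2ak3 (PERK) read 9.76, 1.04, 2.21 and 8.02 on KO arrays, against 9.88, 1.54, 10.32 and 9.41 on WT arrays. Its probe was well above background on 2 KO arrays and 3 WT arrays, and both groups held bright and dark arrays. The difference for Eif2ak3 was -2.53 ± 2.65 (SE; limma, adjusted p = 0.690). It was -4.61 without WT array 2, -4.03 without KO array 5, -1.52 without KO array 7 and -1.12 without KO array 6. A second Eif2ak3 probe (AK010397) read 6.02, 4.29, 4.5 and 6.05 on KO arrays, against 8.47, 4.93, 4.52 and 5.14 on WT arrays, with a difference of -0.55, and the mean over both probes gave -1.54. Ern1 (IRE1), which splices the messenger of Xbp1, read 4.95, 11.58, 13.23 and 11.81 on KO arrays, against 10.58, 10.96, 10.18 and 11.76 on WT arrays. KO array 5 was low, and without it the difference was 1.33 in place of -0.48.

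Ern1 had 5 probes, of which 4 were tested. The probe ENSMUST00000106799 read 6.18, 7.80, 4.58 and 5.69 on KO arrays, against 5.51, 4.47, 4.85 and 4.47 on WT arrays, a difference of 1.23. The probe ENSMUST00000106800 read 9.0, 4.69, 4.93 and 3.5 on KO arrays, against 2.01, 4.71, 3.71 and 3.31 on WT arrays, a difference of 2.09, and was well above background on 4 KO arrays and 1 WT array. The probe NM_023913.2 read 6.78, 10.29, 6.40 and 7.20 on KO arrays, against 6.73, 10.22, 6.78 and 9.54 on WT arrays, a difference of -0.65. The groups of all these Ern1 probes overlapped. The fifth probe (ENSMUST00000106801) was not well above background on any array, at 1.82, 0.93, 2.08 and 0.77 on KO arrays, against 2.03, 1.23, 2.32 and 1.56 on WT arrays.

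Atf6, the membrane-bound factor that is cut free in the Golgi, gave opposite values on its 2 probes. The probe ENSMUST00000182787 read 11.14, 10.48, 11.11 and 10.17 on KO arrays, against 10.78, 11.71, 10.90 and 11.30 on WT arrays. Its groups overlapped, with a difference of -0.45 ± 0.35 (SE; limma, adjusted p = 0.582). The probe NM_001081304.1 read 12.63, 10.34, 13.26 and 12.20 on KO arrays, against 9.0, 5.08, 12.26 and 7.17 on WT arrays. Of its WT arrays, 3 lay below every KO array, with a difference of 3.73 ± 1.47 (SE; limma over probes, adjusted p = 0.473).

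Of the factors that act after the sensors, Xbp1 read 10.62, 9.25, 10 and 10.03 on KO arrays, against 10.26, 6.57, 10.45 and 12.52 on WT arrays. The KO arrays lay inside the WT range, with a difference of 0.02 ± 1.14 (SE; limma, adjusted p = 0.995), and it was -1.10 without WT array 2 and -0.19 without KO array 5. Atf4, whose translation PERK signalling favours, read 13.25, 12.88, 14.82 and 14.49 on KO arrays, against 14.13, 13.67, 14.27 and 15.45 on WT arrays. Its groups overlapped, with a difference of -0.52 ± 0.57 (SE; limma, adjusted p = 0.705). It was -0.84 without KO array 7, -0.31 without KO array 5, -0.19 without KO array 6 and -0.16 without WT array 4, and -0.11 after quantile normalization.

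Trib3 and Ppp1r15a are targets of ATF4 and CHOP. Trib3, a pseudokinase that dampens the response, read 7.32, 7.61, 6.43 and 6.62 on KO arrays, against 8.42, 7.69, 7.20 and 7.97 on WT arrays. The KO arrays were the lower ones, apart from KO arrays 5 and 6, which lay above WT array 3. The difference for Trib3 was -0.82 ± 0.39 (SE; limma, adjusted p = 0.458). Ppp1r15a (GADD34), which restores translation, ran from 10.14 to 11.49 on KO arrays and from 10.70 to 11.57 on WT arrays, with a difference of -0.08.

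Ddit3 encodes CHOP, the factor tied to cell death under lasting ER stress. Its brighter probe (ENSMUST00000134686) read 15.46, 15.40, 15.40 and 15.18 on KO arrays, against 15.89, 15.62, 15.91 and 16.39 on WT arrays. All KO arrays lay below all WT arrays. The means were 15.36 ± 0.12 in KO and 15.95 ± 0.32 in WT (SD, n = 4 each), and the difference was -0.59 ± 0.25 (SE; limma, adjusted p = 0.454), or 1.51-fold lower. The difference was -0.43 with scaling to the array median, -0.11 after cyclic loess and 0.00 after quantile normalization.

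The second Ddit3 probe (NM_007837.3), named for the RefSeq transcript, pointed the other way. It read 13.68, 11.16, 11.44 and 9.72 on KO arrays, against 7.55, 1.52, 11.95 and 13.76 on WT arrays. The groups overlapped, with a difference of 2.80 ± 2.53 (SE; limma over probes, adjusted p = 0.643). The 2 probes of Ddit3 thus differed in sign, and neither passed the test.

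Herpud1 encodes a scaffold of ER-associated degradation, the route by which misfolded proteins leave the ER. It read 14.37, 14.60, 14.49 and 14.30 on KO arrays, against 14.88, 14.77, 14.87 and 15.38 on WT arrays. As with Ddit3, all KO arrays lay below all WT arrays. The means were 14.44 ± 0.13 in KO and 14.98 ± 0.27 in WT (SD, n = 4 each), with a difference of -0.54 ± 0.24 (SE; limma, adjusted p = 0.454). After quantile normalization the difference was -0.11.

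Sel1l, the partner of the ligase HRD1 in the same route, read 10.44, 10.21, 4.17 and 8.36 on KO arrays, against 4.19, 4.05, 3.77 and 9.98 on WT arrays. Its probe was well above background on 3 KO arrays and 2 WT arrays, and WT array 4 stood apart from the other WT arrays. The difference for Sel1l was 2.80 ± 1.85 (SE; limma, adjusted p = 0.531), it was 4.29 without WT array 4, and 1.81 after normexp with quantile normalization. A second Sel1l probe (ENSMUST00000169843) read 3.45, 0.97, 2.11 and 1.27 on KO arrays, against 4.66, 5.36, 2.36 and 1.62 on WT arrays. It was well above background on 0 KO arrays and 2 WT arrays and was not tested, its measured values were lower in KO, and with the mean over both probes the difference for Sel1l was 0.62. Edem1, which steers misfolded glycoproteins to degradation, ran from 8.49 to 11.19 on KO arrays and from 5.41 to 12.48 on WT arrays, with a difference of 1.35.

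**Figure D3:**
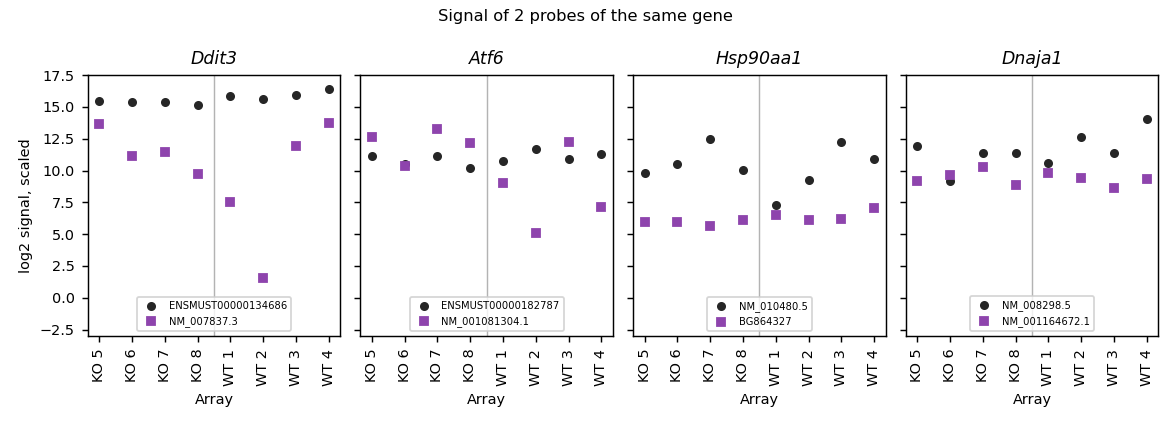
Log2 signal on each of the 8 arrays of the 2 probes of Ddit3, Atf6, Hsp90aa1 and Dnaja1, KO arrays left of the grey line and WT arrays right of it. Black circles mark the probe with the higher mean, which stands for the gene, and purple squares mark the other probe, and for Ddit3 the circles lie lower on KO arrays while the squares spread from 1.52 to 13.76.

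The probes that gave Ddit3 and Hsph1 their narrow, lower KO values hold runs of repeated CA or TG letters. Run lengths count whole pairs of letters, so a stretch in capitals below can exceed its run by an unpaired letter. The first 30 bases of the Ddit3 and Hsph1 probes, and 30 bases from the Herpud1 and Dnajb9 probes, are shown so that their repeats can be seen, with CA, AC, TG or GT runs of at least 6 bases in capitals; the second Ddit3 probe is set beside the first. The brighter Ddit3 probe is placed at chr10:126731579-126731638 by the file headers' build mm9, a span of 60 bases.
Ddit3 (ENSMUST00000134686): caggaACACACACACAgCACACAttcaggc
Ddit3 (NM_007837.3): gcttgcacatagacggtacattgtttatta
Hsph1 (NM_013559.2): cgcaTGTGTGTGgctgtggttgtttataaa
Dnajb9 (NM_013760.4): aatgtctcatacaatatTGTGTGTGagtaa
Herpud1 (NM_022331.1): aagtcatagacGTGTGTGcaTGTGTGctct

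Over all gene probes, those with a CA or TG run of 8 or more bases were brighter and more even as a class. They numbered 834 of 60273 (1.38%), and their median log2 signal was 13.01, against 6.98 for 56270 probes with a run under 6. Of them 42.1% averaged at least 14, against 1.28% of the probes with a run under 6. Their median difference was -0.60, and in 49.1% of those tested all KO arrays lay below all WT arrays, where the share was 9.91% with a run under 6 and the median difference was -0.32. This depended on the scaling: the medians were -0.12 with a run of 8 or more and -0.16 with a run under 6 after quantile normalization, and -0.16 and 0.01 after cyclic loess. The median within-group range was 0.94 with a run of 8 or more and 2.16 with a run under 6. The classes were not matched for signal level or spread, and the part of either was not tested. Some probes with a run under 6 also had a narrow range. Their differences included -0.59 for Creb3l2 (range 0.41), -0.49 for Stub1 (0.67), -0.55 for Cryab (0.78), -0.45 for Atf6 (0.98) and 0.10 for Bag3 (0.48).

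The values of Ddit3 (run of 10 bases, mean 15.66, difference -0.59) and Hsph1 (run of 8, mean 15.21, difference -0.51) lay within this class. Herpud1 and Trib3 had a run of 6, and Dnajb9 (run of 8, mean 9.95, difference 0.30) did not share the class's brightness or sign. Without all probes that hold a run of 8 or more, 0 genes of the set were lower at an unadjusted p under 0.05, Ddit3 was represented by its other probe with a difference of 2.80, and the difference for Herpud1 was still -0.54. The neuron marker Snap25, whose probe holds a run of 18 bases, also read lower on all KO arrays (-0.58), as did the neuron marker Syt1 (-0.58), whose longest run was 2 bases. The part of such runs in the result was not tested.

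**Figure D4:**
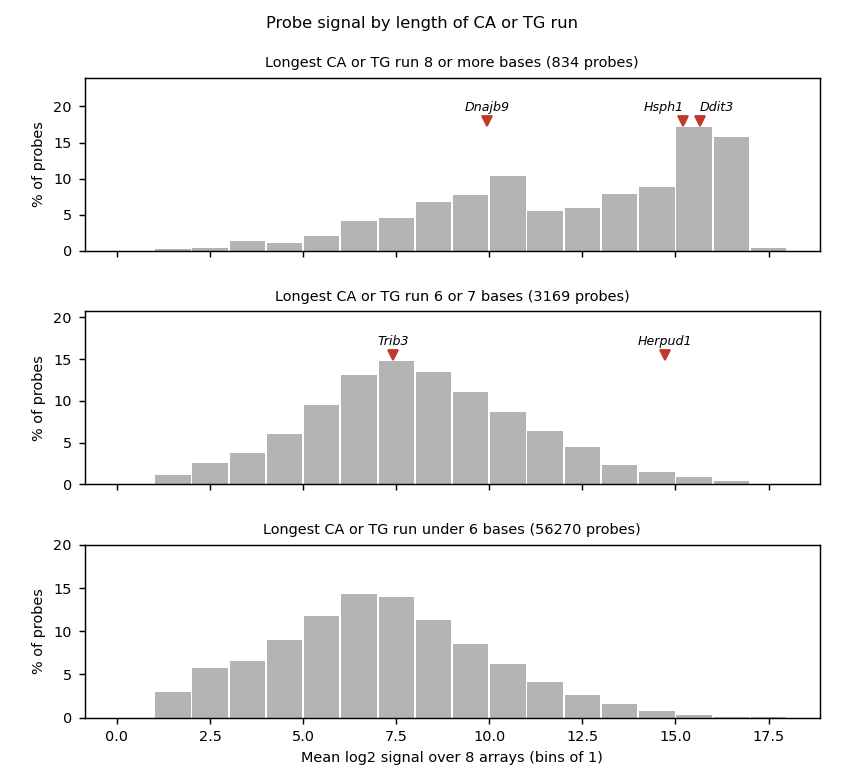
Share of gene probes (y axis, %) by mean log2 signal over 8 arrays (x axis, bins of 1), in 3 panels by the longest CA or TG run of the probe. Probes with a run of 8 or more bases are shifted to high signal, with 42.1% at 14 or more. Red triangles mark the genes of the set with a run of 6 or more bases, and the other genes of the set, all with a run under 6, are not marked.

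Spread between arrays of 1 group differed widely among the 33 genes. The wider of the 2 within-group ranges exceeded 4 log2 units for 13 genes (39.4%), against 25.5% of all tested genes and 20.8% of those at a like signal. It was widest for Hspa1a (11.52), Dnajc3 (9.66), Eif2ak3 (8.78), Hspa1b (8.53) and Ern1 (8.27). It stayed under 1 for Bag3 (0.48), Herpud1 (0.61), Ddit3 (0.77), Hsph1 (0.88) and Atf6 (0.98), which is 15.2% of the set and 20.2% of all tested genes.

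The array medians of the set were 11.14, 11.11, 12.38 and 11.36 on KO arrays 5 to 8, against 10.58, 10.96, 10.93 and 11.64 on WT arrays 1 to 4. KO array 7 had the highest and WT array 1 the lowest median. WT array 4 gave the highest value for 14 of 33 genes, KO array 7 for 8 and KO array 8 for 5. Before scaling, WT array 4 had the lowest 75th percentile of all arrays (518.29), so the main scaling raised it most. WT array 2 gave the lowest value for 9 genes and KO array 8 for 8. The medians of all tested genes were 7.93, 7.96, 7.67 and 7.81 on KO arrays, against 8.05, 8.0, 7.87 and 7.98 on WT arrays, so KO array 7 had the highest median of the set and the lowest of all genes.

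**Figure D5:**
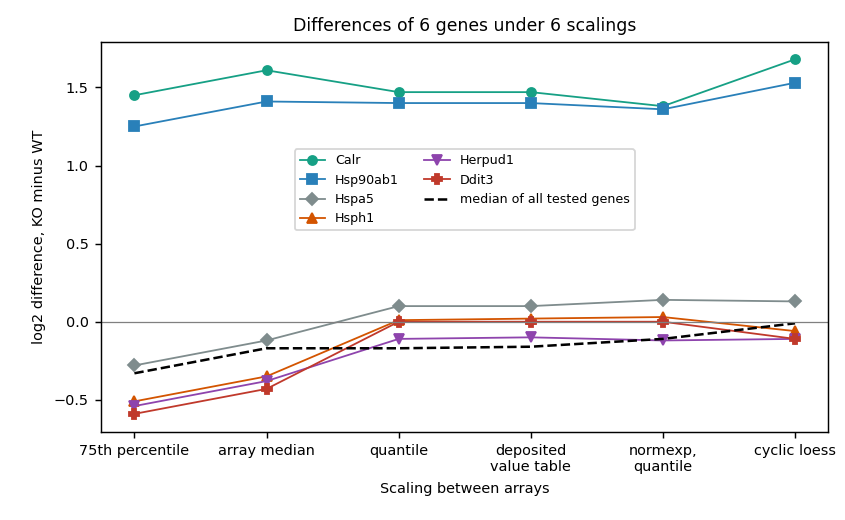
Difference in log2 signal (KO minus WT) of Calr, Hsp90ab1, Hspa5, Hsph1, Herpud1 and Ddit3 under 6 ways of scaling the arrays (x axis), with the median of all tested genes dashed. With all arrays kept, Calr lies between 1.38 and 1.68 (0.86 without KO array 7 under the main scaling) and Hsp90ab1 between 1.25 and 1.53, while Ddit3 runs from -0.59 to 0.00 and Hspa5 changes sign.

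Other genes of these pathways were set beside the 33. Of 57 further chaperone genes tested, 36 had a positive and 21 a negative difference with a median of 0.21, and 2 higher and 1 lower had an unadjusted p under 0.05, beside 1.61% and 9.37% of all tested genes. Dnajb14, an ER-anchored HSP40, read 10.88, 9.72, 12.58 and 11.82 on KO arrays, against 8.79, 8.77, 8.91 and 9.58 on WT arrays. The groups did not overlap, with a difference of 2.24 ± 0.61 (SE; limma, adjusted p = 0.454). Cct6a, a subunit of the chaperonin that folds actin and tubulin, likewise did not overlap, at 10.71, 11.98, 11.87 and 10.80 on KO arrays, against 9.70, 7.73, 10.22 and 9.62 on WT arrays, with a difference of 2.02. For the HSP70-interacting protein St13 the difference was 3.53 with overlapping groups. In the other direction, the differences were -0.61 for Bag2, whose probe holds a run of 14 bases, -0.55 for Cryab and -0.58 for Dnajb5, and the groups of Bag2 and Cryab did not overlap. The groups of Dnajc5 (-0.50), named after its values were seen, did not overlap either. Of the 57 genes, 2 lay wholly higher in KO and 3 wholly lower, beside 0.641% and 11.0% of all tested genes.

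Of 60 further genes of the unfolded protein response, 55 were tested, with 28 positive and 27 negative differences and a median of 0.07, which ran from -0.16 (without KO array 8) to 0.15 (without KO array 6) with 1 array left out. At an unadjusted p under 0.05 there were 2 higher and 2 lower, beside the same shares of all tested genes. Eif2ak2 encodes PKR, the kinase that, like PERK, phosphorylates eIF2 alpha, but in reply to double-stranded RNA. It read 10.62, 10.25, 10.60 and 8.97 on KO arrays, against 4.52, 7.18, 3.44 and 4.43 on WT arrays. The groups stood well apart, with a difference of 5.22 ± 0.81 (SE; limma, adjusted p = 0.313), and 3 of 4 WT arrays were well above background.

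Erlec1, an ER lectin of the degradation route, read 13.90, 12.53, 13.57 and 15 on KO arrays, against 8.43, 11.62, 5.17 and 10.24 on WT arrays. These groups did not overlap either, with a difference of 4.89 ± 1.33 (SE; limma, adjusted p = 0.454). For Derl2, a channel protein of the same route, the difference was 3.84 with overlapping groups. Of the 27 genes with a negative difference, those with the smallest unadjusted p were Creb3l2 (-0.59) and the ER reductase Dnajc10 (-0.79), both without overlap, and Nupr1 (-0.62), with overlap. Mbtps1 (-0.38) and Eif2ak1 (-0.36) also had groups without overlap, and were named after their values were seen. Of the 55 genes, 2 lay wholly higher in KO and 4 wholly lower, beside 0.641% and 11.0% of all tested genes.

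Tissue dissociation is known to induce immediate early genes together with heat shock genes. Of 16 such genes, 11 had a positive and 5 a negative difference with a median of 0.70, and none had an unadjusted p under 0.05. Over all tested genes 30.8% were positive and the median was -0.33. The difference was 2.94 for Fos, 2.41 for Nr4a1 and 2.10 for Fosb, and -0.58 for Jund, -0.49 for Socs3 and -1.49 for Ier2. Fosb read 13.55 on KO array 8, against 6.70 to 7.77 on the other KO arrays and 6.32 to 7.48 on WT arrays. At an unadjusted p under 0.05, lower markers were 3 of 7 tested for neurons, 2 of 5 for B cells and 2 of 7 for endothelial and mural cells, beside 9.37% of all tested genes, and 1 of 10 neutrophil markers was higher, beside 1.61%. The neuron marker Tubb3 had a difference of 1.00. The part of dissociation, of other cell types or of depth of signal in the values of the set was not tested.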

How the data were processed

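The 8 single-colour arrays were of an Agilent custom design, 4 KO and 4 WT. Per the labels' protocols, RNA was amplified with a low-input kit and random primers. Per the file headers, Feature Extraction 11.5.1.1 had subtracted background and spatial trends, and the deposited intensity values were not normalized between arrays. A deposited table of processed intensity values served only as an alternative. Its columns have identical sorted values, as after quantile normalization, and no source used here gives its scaling steps. Its differences for the set lay close to those after quantile normalization, with 1.47 in both for Calr and 4.72 against 4.73 for Dnajc3.

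Control spots (1439 per array) and outlier spots (25 to 149) were left out, and no spot was saturated. Of 60273 probes, 31064 were named through RefSeq, 8935 through a symbol and 420 through an older symbol. The processed signal was put on the log2 scale, and each array's 75th percentile was subtracted and a constant of 9.54 added. The probe with the highest mean stood for a gene, and it was tested where at least 4 of 8 arrays had it well above background. Differences were fitted with limma 3.58.1 in R 4.3.3 (lmFit and eBayes, two-sided, Benjamini-Hochberg over all tested genes, threshold 0.05), and the script was tested on simulated data. Other software was Python 3.11.15, pandas 2.3.3 and data.table (version 1.17.8) for reading files, and plots drawn with matplotlib 3.10.9.

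Values on each array are given for the 10 genes with the smallest unadjusted p, those without overlap, the 3 largest differences, Hsf1, Hspa5, Ddit3, Xbp1 and Atf4, and genes whose probes differ in sign; other pathway lists give 3 genes per direction. Hspa1a, Hspa1b, Hspa9, Bag3 and Selplg were added or given as ranges for their role. Genes, lists, motifs and tests were chosen with earlier results of these data known. All arrays lay on 1 slide in 1 scan; each slide row held 2 KO and 2 WT arrays, and slide columns and groups cannot be told apart. The number of arrays limits the precision.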

Additional observations from a re-analysis of the deposited data

Results flagged for a closer look

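In 66 groups of 4 arrays (33 genes, 2 groups each), 4 held an array whose gap to its nearest neighbour, as a share of the group's range, exceeded Dixon's critical value; chance flags about 1 in 20 groups. Calr read 13.05 on KO array 7, where the next KO array had 10.75. Hspa9 read 8.69 on KO array 5, where the next had 12.11. Eif2ak3 read 1.54 on WT array 2, where the next WT array had 9.41. Sel1l read 9.98 on WT array 4, where the next had 4.19.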

How the results depend on the processing

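No gene of the set passed an adjusted p of 0.05 under any of the 22 settings run, and the lowest adjusted p ran from 0.411 to 0.873. The set's median difference of 0.16 was 0.02 to 0.52 under the settings that kept all arrays, -0.31 within slide row 1 and 0.23 within slide row 2, and -0.26 to 0.26 when 1 array was left out. The count of genes higher at an unadjusted p under 0.05 (0) was 1 with quantile normalization, normexp plus quantile, the deposited value table, slide row as a block or RefSeq probes, 2 within slide row 1, and 0 to 3 with 1 array left out. The count of lower genes (1) was 0 with quantile normalization, array median, cyclic loess, normexp plus quantile, the value table, no filter, the mean over probes, slide row as a block, slide row 2, RefSeq probes or without CA or TG runs of 8 or more, 2 within slide row 1, and 0 to 1 with 1 array left out. The last 2 probe choices were made after seeing the data. Over all tested genes, 1.61% were higher and 9.37% lower at that p, against 2.13% and 4.44% with quantile normalization, 2.08% and 4.21% with the array median, 2.96% and 1.89% with cyclic loess, 2.16% and 4.36% in the value table, and 1.97% and 4.57% with normexp plus quantile. These shares were 1.65% and 7.49% with slide row as a block, and 1.96% and 7.81% with RefSeq probes. Within slide row 1 they were 2.49% and 2.28%, and within slide row 2 they were 2.12% and 2.48%. With 1 array left out they are not given.

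Of the 19 genes given on every array by the rule, 9 turned sign under some setting, and none of these was called; Pdia3 and Ppp1r15a turned sign under another scaling. Hsph1 was 0.01 with quantile normalization, 0.02 in the value table and, with normexp plus quantile, 0.03. Hspa5 was 0.10, 0.10 and 0.14 under these and 0.13 with cyclic loess. Ddit3 was 0.00 in the value table, 1.11 as the mean over probes and 2.80 with RefSeq probes or without the runs. Atf6 was 1.64 as the mean over probes, 3.73 with RefSeq probes and 0.29 within slide row 2. Ern1 was 0.36 as the mean over probes and 0.34 within slide row 1. Within slide row 2, Hsf1 was 0.23, Xbp1 -0.05 and Dnaja1 0.71. With 1 array left out, Hsf1 ran from -1.10 to 0.04, Xbp1 from -1.10 to 0.88, Ern1 from -1.42 to 1.33 and Hsp90aa1 from -0.07 to 1.58. Apart from the changes of probe, the cause was not tested. No paired analysis was possible because KO and WT samples share no replicate number.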
